A study of Mus musculus with 21 samples.

Results

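Glutamate and GABA are the main excitatory and inhibitory transmitters of the brain, and the genes of their receptor subunits are described here in choroid plexus and hypothalamus. The genes were chosen by symbol: AMPA (Gria), kainate (Grik), NMDA (Grin), delta (Grid) and metabotropic (Grm) glutamate receptors, GABA-A receptors (Gabr) and both GABA-B subunits (Gabbr1 and Gabbr2). The rule found 47 genes among the 25239 in each table, 26 for glutamate and 21 for GABA. Messenger RNA was measured by bulk RNA sequencing in wild-type C57BL/6J mice, either with Ins2, a mouse insulin gene, overexpressed in the choroid plexus, or as controls. Choroid plexus gave 6 Ins2 and 5 control libraries, and hypothalamus of the same kinds of mice gave 5 and 5. The labels call all controls untreated and do not state how Ins2 was introduced, nor the promoter or cell type that expressed it. In the deposited table the columns of the hypothalamus controls begin with GFP, which the labels do not explain. The labels do not tie replicates to separate animals, and p-values therefore reflect variation between libraries that may be technical.

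AMPA, kainate and NMDA receptors are ion channels that glutamate opens, and GABA-A receptors are chloride channels that GABA opens. All are assembled from several subunits, and many subunits form no working channel alone. The metabotropic glutamate receptors and the GABA-B receptor signal through G proteins, and the GABA-B receptor is a dimer in which GABBR1 binds GABA and GABBR2 couples to the G protein. In hypothalamus these receptors carry fast and slow transmission between neurons. The choroid plexus is a secretory epithelium with stroma and vessels, and neurons are not among its main cell types.

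The tissues carried their labelled markers. Ttr, the transthyretin gene of choroid plexus epithelium, took 10.7% to 12.98% of choroid plexus reads and at most 1.02 reads per M reads (RPM; M, 1e+06) in hypothalamus. Ins2 itself had 387 to 501 size-factor-scaled reads in the choroid plexus controls (mean 430, SD 50.7) and 598 to 1041 with overexpression (mean 826, SD 162), with no overlap. In hypothalamus Ins2 had 0 reads in all 5 controls and in 4 of 5 Ins2 libraries. Libraries held 25.95 to 36.3 M reads in choroid plexus and 27.4 to 62.1 M in hypothalamus. A count of 0 therefore allows up to 3 reads, or 0.0827 to 0.116 and 0.0483 to 0.110 RPM, for counting error only. Control 2 of the choroid plexus stood apart by glial transcripts. Its summed level of 11 oligodendrocyte and precursor markers, all with reads, was 1887 RPM, while the lowest control had 174 and Ins2 libraries had 182 to 279.

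The choroid plexus held few of the subunit transcripts, and 4 genes made up most of their reads. Those were Grik5, Gabbr1, Gabra4 and Gabrb1, and the RefSeq promoter windows of these are shown because their genes stand out, with that of Gabrp as a contrast that was read in choroid plexus and hardly in hypothalamus. Each window runs from 250 bases before to 50 bases after the start site, 5′ to 3′ on the gene's strand (GRCm38.p6). Capitals mark GGGCGG or its reverse CCGCCC, the GC box.
Grik5 (chr7:25072320-25072619, minus strand): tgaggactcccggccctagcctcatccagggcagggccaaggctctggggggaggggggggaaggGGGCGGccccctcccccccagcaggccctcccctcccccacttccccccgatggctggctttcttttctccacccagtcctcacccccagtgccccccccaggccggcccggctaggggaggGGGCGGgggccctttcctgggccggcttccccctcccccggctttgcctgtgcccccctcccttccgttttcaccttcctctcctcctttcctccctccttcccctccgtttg
Gabbr1 (chr17:37045716-37046015, plus strand): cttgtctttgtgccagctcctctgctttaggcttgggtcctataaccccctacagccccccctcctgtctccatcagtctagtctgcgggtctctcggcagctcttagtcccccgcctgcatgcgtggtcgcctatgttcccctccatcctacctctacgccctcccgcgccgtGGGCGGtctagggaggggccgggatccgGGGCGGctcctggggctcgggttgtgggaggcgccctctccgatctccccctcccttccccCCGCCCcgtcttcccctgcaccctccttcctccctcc
Gabra4 (chr5:71658259-71658558, minus strand): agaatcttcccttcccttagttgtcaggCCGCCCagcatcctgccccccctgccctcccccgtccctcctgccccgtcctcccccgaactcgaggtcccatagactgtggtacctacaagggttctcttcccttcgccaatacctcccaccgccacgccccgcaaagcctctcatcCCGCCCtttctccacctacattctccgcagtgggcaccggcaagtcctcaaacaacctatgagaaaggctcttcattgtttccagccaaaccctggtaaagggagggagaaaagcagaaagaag
Gabrb1 (chr5:71657671-71657970, plus strand): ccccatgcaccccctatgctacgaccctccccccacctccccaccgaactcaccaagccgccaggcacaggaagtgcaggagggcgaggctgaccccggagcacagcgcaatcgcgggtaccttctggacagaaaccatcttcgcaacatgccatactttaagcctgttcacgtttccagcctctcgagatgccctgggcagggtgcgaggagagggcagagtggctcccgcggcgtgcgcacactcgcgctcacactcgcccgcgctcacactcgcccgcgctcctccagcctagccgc
Gabrp (chr11:33578908-33579207, minus strand): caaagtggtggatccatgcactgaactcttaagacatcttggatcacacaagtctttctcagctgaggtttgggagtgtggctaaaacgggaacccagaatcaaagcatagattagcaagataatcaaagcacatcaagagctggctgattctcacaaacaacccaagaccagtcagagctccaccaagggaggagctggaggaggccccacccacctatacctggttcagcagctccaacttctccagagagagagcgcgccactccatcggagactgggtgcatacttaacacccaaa

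The GC box letters occurred 2 times in the Grik5 window, 3 times in that of Gabbr1, 2 times in that of Gabra4, and not in those of Gabrb1 and Gabrp. Over both strands, GGGCGG was found in 35.9% of 27025 promoter windows of the same length and in 18 (56.2%) of the 32 members that matched the RefSeq table. CpG dinucleotides numbered 10, 18, 12 and 25 in the windows of Grik5, Gabbr1, Gabra4 and Gabrb1 and 4 in that of Gabrp, against a median of 7 over all windows and of 13 over the 32 members. Further motifs were searched on both strands: CACGTG (E-box), TGTTTAC (forkhead core) and TAATCC (bicoid-type homeodomain core). None of these letters was in the 5 windows, and they were found in 7.24%, 3.52% and 7.15% of all windows and in 1, 1 and 2 of the 32 members. A match describes letters in the window and not a used site.

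Gabra4 and Gabrb1 encode an alpha and a beta subunit of the GABA-A receptor and are neighbours on opposite strands of chromosome 5 (GRCm38; Gabra4 71569749 to 71658308, Gabrb1 71658113 to 72149037). Their RefSeq start sites, 71658308 and 71657921, lie 387 bases apart, each inside the other gene, and the annotated exons share 46 bases. That is 0.756% of the exon bases of Gabra4 and 0.332% of those of Gabrb1. The same chromosome 5 cluster holds 4 GABA-A genes, among them Gabrg1 and Gabra2. In choroid plexus Gabra4 had 1055 to 1641 reads per library and Gabrb1 1210 to 2020, while Gabrg1 had 29 to 90 and Gabra2 0 to 15. The cluster was thus read unevenly, and in hypothalamus all 4 genes had levels between 6.81 (Gabra4) and 14.4 (Gabrg1) RPM per kilobase of exon.

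Levels were compared between genes per length, as RPM per kilobase of exon (here RPKM, from recovered reads and the union of annotated exons). A gene was counted as present in choroid plexus with at least 10 reads in every library. By that rule 11 of the 47 genes were present, 34 had some reads without reaching it, and Gabra6 and Gabrr3 had 0 reads in all 11 libraries. With at least 3 reads the count was 17 and with at least 50 it was 7.

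**Figure D1:**
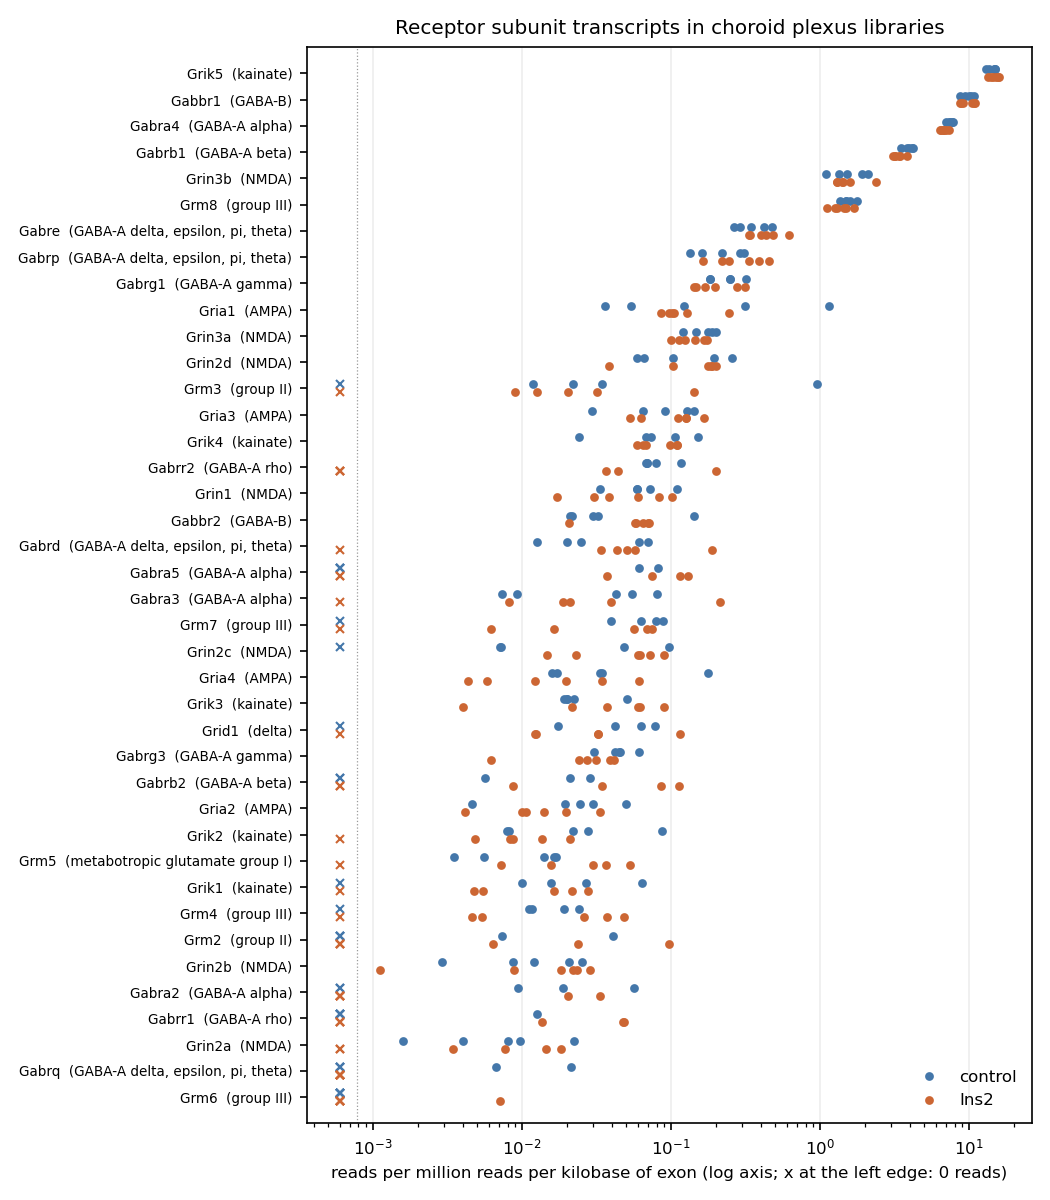
Level of receptor subunit genes in each choroid plexus library, in RPM per kilobase of exon on a log axis. Points are libraries (5 control, 6 Ins2), crosses at the left edge are libraries with 0 reads, and 40 genes with any read are ordered by mean. Grik5, Gabbr1, Gabra4 and Gabrb1 lie above the rest in all libraries, and from Gabre downwards the ranges of neighbouring genes overlap.

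Grik5, which encodes the kainate subunit GluK5 that needs a partner such as GluK2 to form a channel, was the highest per kilobase. Its RPKM in controls 1 to 5 was 14.8, 13.6, 14.6, 14.99 and 13.0, and in Ins2 replicates 1 to 6 it was 15.5, 13.4, 15.1, 14.3, 15.9 and 14.0. The libraries thus lay close together, at 14.5 ± 0.893 (SD, n = 11). The usual partner Grik2 had 0 to 40 reads per library. Over all choroid plexus libraries together, Grik5 exceeded Grik2 per kilobase by 716 times. That rests on 88 Grik2 reads in all, 40 of them in control 2, the library with high glial transcripts. Over the 10 libraries with a Grik2 read the ratio ran from 157 to 3258. In hypothalamus it ran from 5.14 to 8.56 over 10 libraries, with a median of 7.45. Grik1 and Grik3, the other partner subunits, had 0 to 15 and 1 to 26 reads.

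Gabbr1 was second. Its RPKM was 9.44, 10.8, 10.2, 9.94 and 8.70 in the controls and 10.97, 9.10, 10.4, 8.69, 10.8 and 8.76 in the Ins2 libraries. No library fell below the highest of the next gene. By reads alone Gabbr1 was level with Grik5, at means of 76.1 and 74.8 RPM over the choroid plexus libraries. Gabbr2, the other subunit of the GABA-B receptor, had 4 to 33 reads per library, and its highest value was in control 2. The ratio of Gabbr1 to Gabbr2 per kilobase had a median of 187 in choroid plexus (76.2 to 473 over 11 libraries) and of 2.83 in hypothalamus (2.77 to 3.36 over 10). The ranges of the 2 tissues were far apart, and the tables were scaled separately, so no test was made across them.

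Gabra4 came next with an RPKM of 7.37, 7.73, 7.64, 6.98 and 7.42 in controls and 6.75, 6.71, 6.38, 6.99, 6.42 and 7.31 in Ins2 libraries. Gabrb1 followed with 3.49, 4.18, 3.97, 3.81 and 4.13 in controls and 3.18, 3.82, 3.42, 3.39, 3.06 and 3.17 in Ins2 libraries. The control values of both lay mostly above the Ins2 values, with overlap. Gabra4 exceeded Gabrb1 per kilobase in every choroid plexus library, with a median ratio of 1.92 (1.75 to 2.30), and was below it in every hypothalamus library (0.634, 0.534 to 0.684). The choroid plexus order rests on the exon lengths, since by reads alone Gabrb1 had more over all libraries together (16451 against 14129).

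The alpha subunits Gabra2, Gabra3 and Gabra5 were not present and had at most 27 reads in a choroid plexus library and 0 in at least 1 library each. The beta subunit Gabrb2 had 0 to 23 reads. Gamma subunits, which place GABA-A receptors at synapses and are needed for benzodiazepine action, include Gabrg1, which was present at 0.220 ± 0.0636 RPKM (SD, n = 11), and Gabrg3, which had 2 to 21 reads. Gabre and Gabrp, the epsilon and pi subunits, were present at 0.401 ± 0.102 and 0.265 ± 0.0999 RPKM, and Gabrd and Gabrq, delta and theta, had at most 14 and 4 reads.

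Among glutamate subunits, Grin3b and Grm8 followed Grik5. Grm8, a group III metabotropic receptor that inhibits adenylyl cyclase, was at 1.45 ± 0.192 RPKM, with 305 to 610 reads per library. Grin3b, a glycine-binding NMDA subunit, was at 1.58 ± 0.390 RPKM with 100 to 285 reads, and its range overlapped that of Grm8. The Grin3b value is uncertain, since 32.1% of its exon bases also lie in exons of Tmem259 on the opposite strand. Tmem259 had 183 to 225 RPM against 3.62 to 7.85 for Grin3b, and the sources used do not give the strand setting of the counting. Of the 47 members, 14 shared exon bases with a gene on the opposite strand, and 8 shared over 5%. Among the genes present in choroid plexus, Grin3b was the one over 5%, and the share of Gabra4 and Gabrb1 was under 1%.

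The obligate NMDA subunit Grin1 had 6 to 37 reads, and all AMPA subunits were below the presence rule. Gria1, the highest AMPA gene, had 55.6, 207, 9.78, 21.8 and 6.48 scaled reads in the controls and 17.4, 19.0, 15.4, 22.3, 17.9 and 43.1 in the Ins2 libraries. Its mean rested on control 2. Grm3, a group II metabotropic receptor that astrocytes also express, had 86.9 scaled reads in control 2 and at most 12.6 in the other libraries. Of the 45 members with any read, control 2 was the highest library for 17 and Ins2 replicate 1 for 10. The part of the glial transcripts of control 2 in these values was not tested. The group I receptor Grm5, the delta receptor Grid1 and the rho subunits Gabrr1 and Gabrr2 were below the presence rule, with at most 22 reads in a library (Grid1). Grin3a, a relative of Grin3b, was present at 0.1503 ± 0.0331 RPKM. The remaining genes, Grik4, Grin2a, Grin2b, Grin2c, Grin2d, Grm2, Grm4, Grm6 and Grm7, had at most 60 reads in a library (Grin2d).

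The first 4 genes together gave 86.0% of the members' reads in choroid plexus (81.8% to 88.0% over libraries), and Grm8 brought this to 91.0%. In hypothalamus the 4 members with the most reads, Gabbr1, Gria1, Grin1 and Gria2, gave 36.2% (35.0% to 36.9%). In hypothalamus 42 members were present by the same rule, and Gabra6, Grm6, Gabrp, Gabrr1 and Gabrr3 were not. All members together took 265 to 317 RPM in choroid plexus and 5242 to 5650 in hypothalamus.

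**Figure D2:**
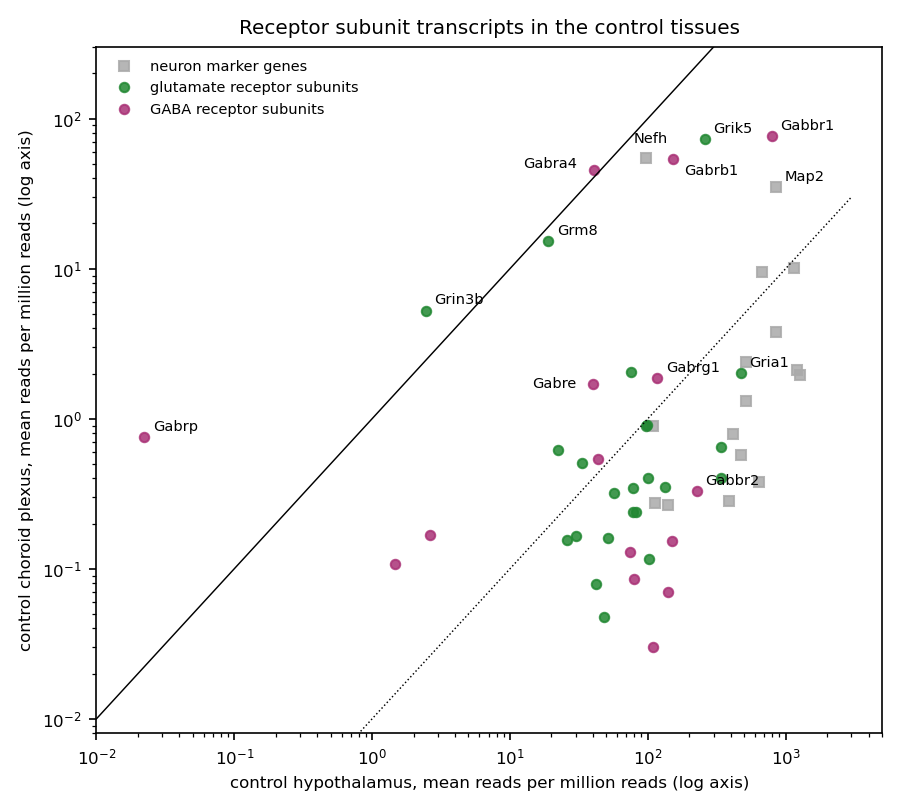
Mean RPM of genes in control hypothalamus (x, n = 5) against control choroid plexus (y, n = 5), both on log axes, for glutamate subunits, GABA subunits and 16 neuron markers. The solid line marks equal values and the dotted line 1% of the hypothalamus value. Most subunits lie below the dotted line, while Grin3b, Gabra4 and Grm8 lie near or above the solid one.

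Set side by side in the controls, with no test, the choroid plexus level was a median of 0.435% of the hypothalamus level over the 42 members with at least 1 RPM there, and 27 of them were below 1%. Over 16 neuron markers the median was 0.249%, with 1 marker (Nefh, 56.9%) above 5%. Of the members, 8 were above 5%. These were Grin3b at 213%, Gabra4 at 111%, Grm8 at 80.1%, Gabrb1 at 35.4%, Grik5 at 28.3%, Gabbr1 at 9.56%, Gabrd at 7.41% and Gabrr2 at 6.43%. The last 2 were low in both tissues, at no more than 0.169 RPM in choroid plexus. The value of Grin3b is uncertain because of the opposite-strand exons of Tmem259, which had 183 to 225 RPM in choroid plexus and 131 to 165 in hypothalamus. Gabrp, the pi subunit found mainly outside the brain, had 13 to 42 reads per choroid plexus library and a mean of 0.0223 RPM in control hypothalamus. Neuron markers summed to 108 to 145 RPM in control and 113 to 153 in Ins2 choroid plexus, with reads for all 16. The sum rested largely on Nefh (control mean 55.0 RPM) and Map2 (34.9), and the next was Syp at 10.2. Rbfox3, Elavl4, Nefl and Vsnl1 were at 0.268 to 0.380 RPM. In bulk tissue, fewer cells of a type and less RNA per cell cannot be told apart.

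The next question was whether Ins2 overexpression altered these transcripts in the choroid plexus itself. No receptor subunit gene passed the test there, and the nearest were the paired neighbours Gabrb1 and Gabra4, both lower in Ins2 samples before adjustment. The test was limma's moderated test (with trend) of log2(value + 1), two-sided, with Benjamini-Hochberg adjustment over all genes with a mean of at least 10 scaled reads and a threshold of 0.05. Of the 47 members 20 could be tested, and 27 fell below that mean. None of the 20 passed, where 0.0138% of all 14533 genes did. EdgeR and DESeq2 on the recovered reads called none of the 20 either, where they called 2 and 25 of all 14533 genes. Their smallest adjusted p among the members were 0.497 and 0.128, both for Gabrb1. At an unadjusted p under 0.05 there were 2 of 20, both lower, beside 3.67% lower, 2.54% higher and 6.21% in either direction among all genes. For no member did the ranges of the groups fail to overlap, while 0.626% of all genes did so (0.234% higher, 0.392% lower). The median log2 fold change of the 20 was -0.03, and 11 (55.0%) were below 0, as were 51.6% of all genes, whose median was -0.005.

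**Figure D3:**
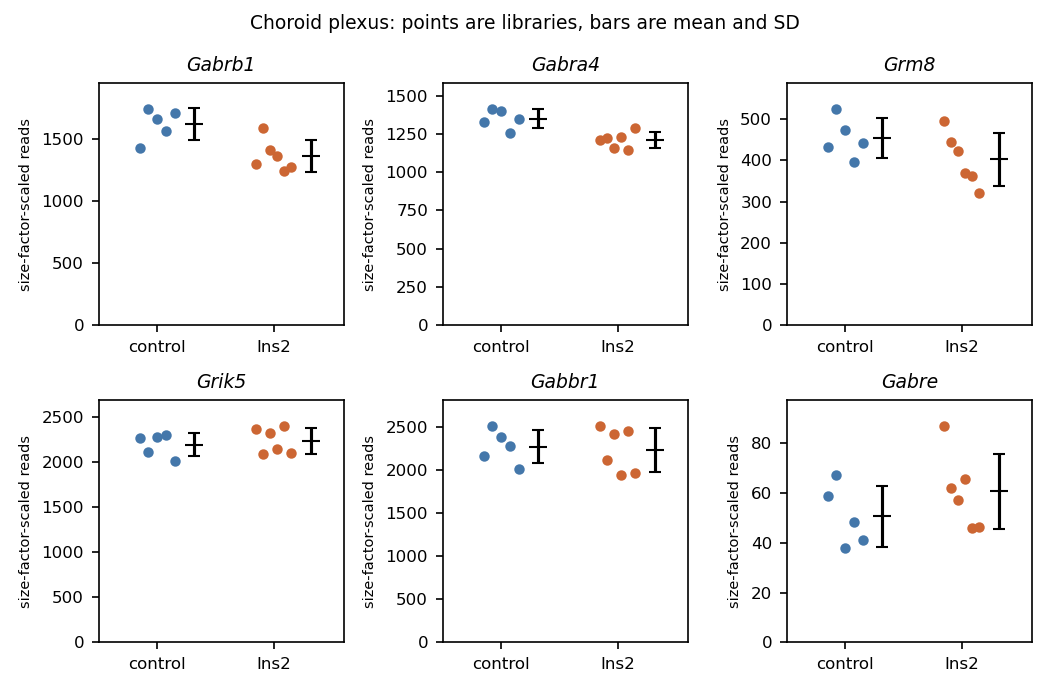
Size-factor-scaled reads of 6 members in choroid plexus. Points are libraries (5 control, 6 Ins2), the bar beside them is the mean with 1 SD, and each axis starts at 0. Gabrb1 and Gabra4 are lower on average in the Ins2 libraries with overlapping ranges, and Grik5 and Gabbr1 have nearly equal means.

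Gabrb1 had 1424, 1738, 1656, 1562 and 1704 scaled reads in controls 1 to 5 and 1297, 1587, 1410.3, 1357, 1239.5 and 1271 in Ins2 replicates 1 to 6. Ins2 replicate 2 lay above controls 1 and 4, and the other Ins2 libraries lay below all controls. The mean was 1617 ± 127 in controls and 1360.3 ± 127 in Ins2 libraries, a fold of 0.841 (95% interval 0.757 to 0.933). Limma's unadjusted p was 0.00254 and its adjusted p 0.514, and the two-sided exact permutation test gave 0.0152. Over all alternative settings the log2 fold change ran from -0.30 to -0.22 and the adjusted p from 0.110 to 0.908.

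Gabra4 had 1324, 1412, 1400.3, 1256 and 1347 in controls and 1209, 1224, 1158, 1228, 1142 and 1286 in Ins2 libraries. Control 4 lay below Ins2 replicate 6, and the other 4 controls lay above all Ins2 libraries. The means were 1348 ± 63.1 and 1208 ± 52.2, a fold of 0.896 (95% interval 0.823 to 0.976). Limma's unadjusted p was 0.0142 and its adjusted p 0.707, and the two-sided exact permutation test gave 0.00649. Without control 2, the library with high glial transcripts, the log2 fold changes were -0.22 for Gabrb1 and -0.14 for Gabra4, beside -0.25 and -0.16 with it.

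The other genes high in choroid plexus had nearly equal means. Grik5 was 2188 ± 126 scaled reads in controls (n = 5) and 2233 ± 142 in Ins2 libraries (n = 6), a fold of 1.02 (95% interval 0.937 to 1.11). Gabbr1 was 2273 ± 193 and 2237 ± 255, a fold of 0.982 (0.878 to 1.10). These intervals bound what the libraries could show for both genes. Grm8 had 434, 525, 474, 397 and 441 in controls and 496, 445, 424, 369.5, 363 and 320.4 in Ins2 libraries, a fold of 0.882 (0.750 to 1.04; limma adjusted p = 0.844).

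Low genes were measured less well. Gabrg3 had the smallest fold of the 20, 0.588 (0.288 to 1.20 at 95% confidence; adjusted p = 0.854 by limma), on 2 to 21 reads per library. Grin3a was at 0.814 (0.583 to 1.14) on 34 to 81 reads. Higher means in Ins2 libraries were seen for Gabrp, 22.4 ± 7.63 against 29.7 ± 10.4 (fold 1.31, 0.786 to 2.17), and Gabre, 50.7 ± 12.2 against 60.7 ± 15.1 (fold 1.19, 0.846 to 1.68). Gria3 was at 1.22 (0.674 to 2.22) and Gabbr2 at 1.37 (0.599 to 3.14). Gabbr2 fell below the mean of 10 when control 2 was left out. Single libraries moved these values. The log2 fold change of Gria3, 0.29, was -0.046 without control 5 and at most 0.49, without control 1. That of Gabrg3 went from -0.77 to -0.44 without Ins2 replicate 3, that of Gabrp from 0.38 to 0.23 without control 1, and that of Gabre from 0.25 to 0.14 without Ins2 replicate 1 and to 0.16 without control 3. Gabbr2, at 0.46, was at 0.28 with control 1 left out, at 0.29 with control 3 left out and at 0.69 with Ins2 replicate 2 left out. For all 6 genes the groups overlapped. The standard error of a member's log2 fold change ranged from 0.06 to 1.13, with a median of 0.31, so a change of the size seen in Gabrb1 was not detectable for most of them.

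In hypothalamus the members were far better measured, with a median standard error of 0.06, and no subunit gene passed the test either. All 42 genes with a mean of at least 10 were tested, and the 5 others were not. None of the 42 passed, and 0% of all 16363 genes did. EdgeR called none, and DESeq2 called 1, Grin2b (adjusted p = 0.0342), among 21 genes overall. At an unadjusted p under 0.05 there were 8 members (19.0%, beside 9.92% of all genes), 6 higher (14.3%, beside 5.85% of all genes) and 2 lower (4.76%, beside 4.08%). The groups did not overlap for 3 members (7.14%), beside 1.5% of all genes. Of these 2 were higher (background 0.77%) and 1 was lower (0.727%). The median log2 fold change was -0.01 for the 42 and 0.001 for all genes, and 23 members (54.8%) were below 0, beside 49.7%.

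**Figure D4:**
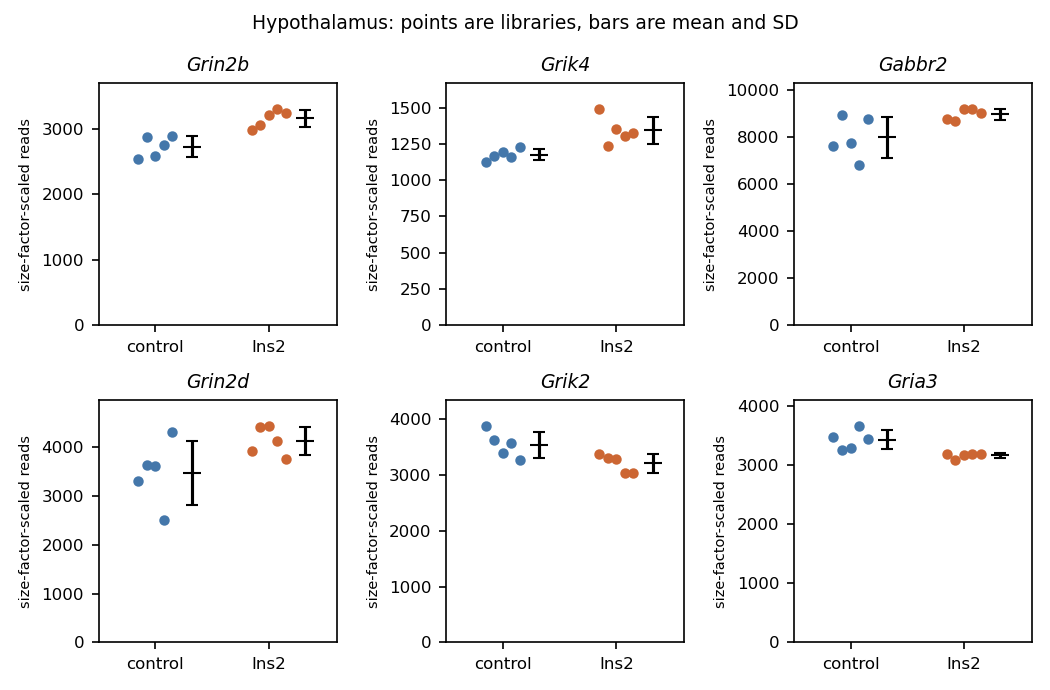
Size-factor-scaled reads of 6 members in hypothalamus. Points are libraries (5 control, 5 Ins2), the bar is the mean with 1 SD, and each axis starts at 0. Ranges do not overlap for Grin2b and Grik4, higher in Ins2, and for Gria3, lower in Ins2.

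Grin2b encodes the NMDA subunit GluN2B, which binds glutamate and gives slowly decaying currents. It had 2539, 2882, 2583, 2758 and 2889 scaled reads in controls 1 to 4 and 6, and 2989.9, 3065, 3218, 3306 and 3240.2 in Ins2 replicates 1 to 5. Every Ins2 library was above every control. The means were 2730.2 ± 164 and 3164 ± 131 (n = 5 each), a fold of 1.16 (1.08 to 1.25 at 95% confidence). Limma's adjusted p was 0.309. The exact permutation p, unadjusted, was 0.00794, the lowest that 5 against 5 allows. Groups that do not overlap give this value by themselves, so it adds nothing to the non-overlap. Grik4, a kainate subunit that like Grik5 needs a partner, had 1128, 1164, 1195, 1161 and 1229.7 in controls and 1491, 1238, 1354, 1307 and 1324 in Ins2 libraries. These groups too did not overlap, though control 6 and Ins2 replicate 2 were close. The fold was 1.14 (1.04 to 1.25), with an adjusted p of 0.350 by limma. The unadjusted exact permutation p, again set by the non-overlap, was 0.00794.

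Grin2d, another glutamate-binding NMDA subunit, had 3299, 3626, 3612, 2499 and 4305 in controls and 3913, 4397, 4420.2, 4109 and 3749 in Ins2 libraries. Control 4 was the lowest and control 6 lay within the Ins2 range. The fold was 1.20 (1.05 to 1.38 at 95% confidence; adjusted p = 0.383 by limma), and without control 4 the log2 fold change was 0.15 in place of 0.27. Of its exon bases 9.66% also lie in exons of opposite-strand genes, Kdelr1 among them, so its level is uncertain. The fold was 1.13 for Gabbr2 (1.04 to 1.23; limma adjusted p = 0.362) and also for Grm4, a group III metabotropic receptor (1.03 to 1.25; adjusted p = 0.397). Control 4 was the lowest library for both genes, and the groups overlapped. Over all genes it also differed most from the other controls, at a chi-square per gene of 19.4 to 20.6 between 2 libraries. Other control pairs were at 7.21 to 14.2. Glutamate subunits summed to 2510 RPM in control 4 and to 2701 to 2807 in the other controls. The delta subunit Gabrd, near 1.75 RPM, had 51.4 ± 12.6 scaled reads in controls and 72.3 ± 11.8 in Ins2 libraries, a fold of 1.42 (1.004 to 2.02; limma adjusted p = 0.501).

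Of the lower genes, Gria3, an AMPA subunit, had 3477, 3263, 3292, 3659 and 3445 in controls and 3181, 3083, 3178, 3185 and 3189 in Ins2 libraries. Every Ins2 library was below every control. The fold was 0.924 (0.865 to 0.987 at 95% confidence), with an adjusted p of 0.425 by limma. The unadjusted exact permutation p, set by the non-overlap here too, was 0.00794. Grik2, the partner of Grik4 and Grik5, had 3871, 3619, 3391, 3564 and 3259.8 in controls and 3381, 3300.4, 3278, 3033 and 3028 in Ins2 libraries. Control 6 lay within the Ins2 range and the other controls above it, and the fold was 0.906 (0.839 to 0.978; limma adjusted p = 0.388). Gabrg1, Gabra2 and Gabra3 had folds of 0.943, 0.924 and 0.952, each with an interval that reached above 1.

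**Figure D5:**
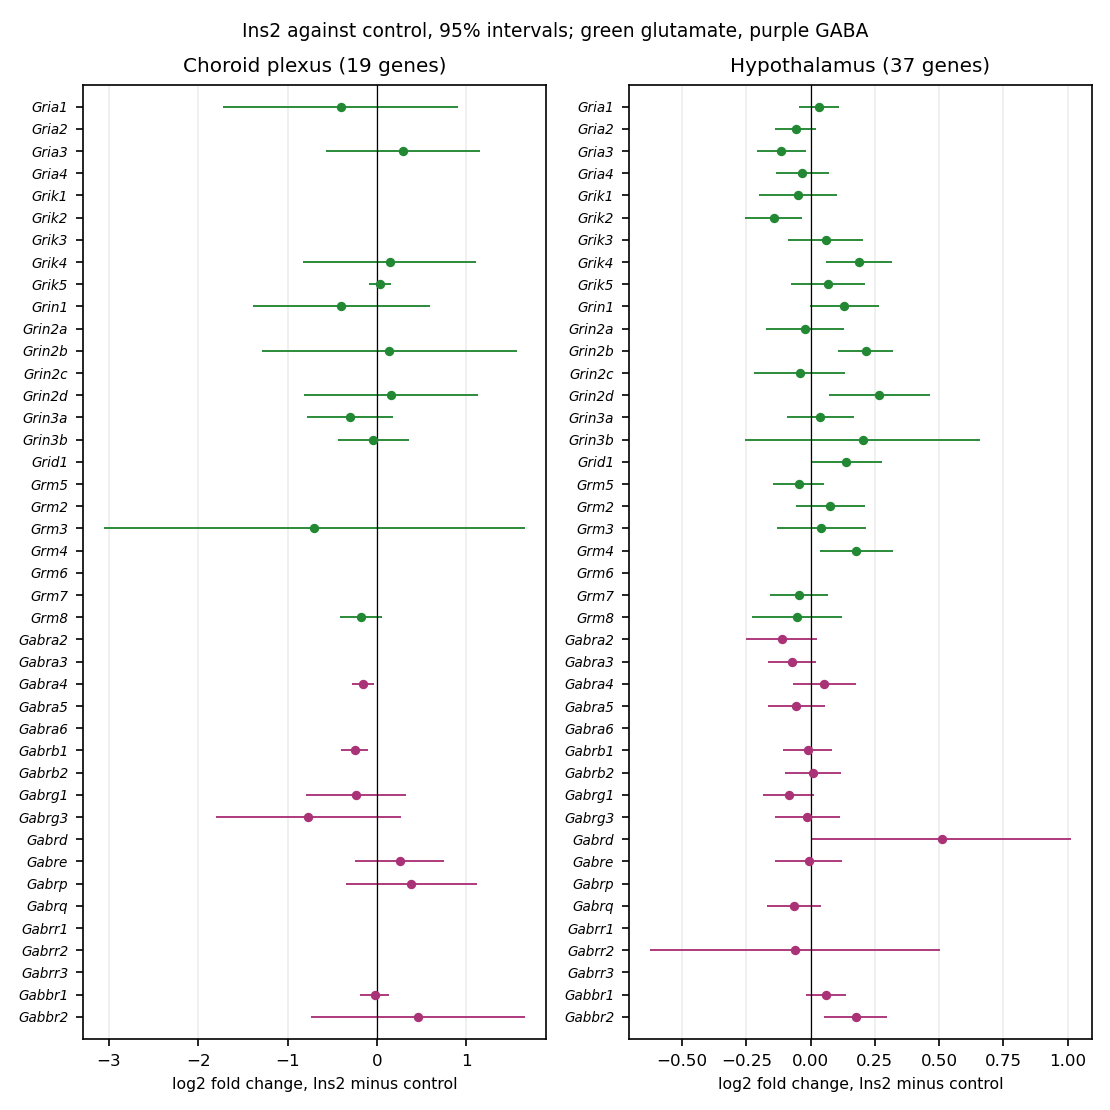
Log2 fold change of Ins2 against control for tested members in choroid plexus (left, 19 genes) and hypothalamus (right, 37 genes). Points are limma estimates and bars are 95% intervals, in green for glutamate and purple for GABA subunits, and the axes of the 2 panels differ in range. Intervals in choroid plexus are wide for most genes, and the estimates in hypothalamus lie between -0.14 and 0.51.

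By class, 4 of 25 glutamate subunits tested in hypothalamus were higher and 2 lower at an unadjusted p under 0.05, and 2 of 17 GABA subunits were higher, where 5.85% of all genes were higher and 4.08% lower. The classes with such genes were NMDA (2 of 7, higher), kainate (1 higher and 1 lower of 5), AMPA (1 of 4, lower), group III metabotropic (1 of 3, higher), the delta, epsilon, pi and theta group (1 of 3, higher) and GABA-B (1 of 2, higher). In choroid plexus both such genes were GABA-A subunits, and none of 11 glutamate subunits had an unadjusted p under 0.05, beside 2.54% of all genes higher and 3.67% lower. Classes of 2 to 7 genes are too small to read such shares from. Summed over GABA subunits, choroid plexus libraries held 178 to 201.1 RPM in controls and 167 to 184 in Ins2 samples, and these ranges overlapped.

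Markers of tissue content were read in hypothalamus as well. Of 12 markers of the neighbouring thalamus, none at 0 reads in all libraries, 11 had a log2 fold change above 0 (median 0.22) and 6 an unadjusted p under 0.05, all higher, where 5.85% of all genes were higher and 49.7% were below 0. Their summed level was 286 to 315 RPM in controls and 313 to 354 in Ins2 libraries. Of 14 hypothalamus markers 12 were below 0 (median -0.10), with sums of 1431 to 1711 in controls and 1429 to 1641 in Ins2 libraries. Of 16 neuron markers 11 were above 0 (median 0.05), 4 were higher and 1 lower at an unadjusted p under 0.05, and for 2 the groups did not overlap, both higher (background 0.77%). The neuron markers summed to 9308 to 9525 RPM in controls and 9307 to 9531 in Ins2 libraries, and these ranges overlapped. The remaining lists were astrocyte, oligodendrocyte and precursor, microglia and macrophage, choroid plexus epithelium, vascular and stromal, ependyma, striatum, cortex and hippocampus, and cerebellum. Their medians ran from -0.06 (vascular and stromal) to 0.10 (cortex and hippocampus), with -0.009 for astrocyte and for striatum markers. No marker of any of these lists passed the adjusted threshold. The part of tissue content in the subunit values was not tested.

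Genes that work with the receptors were read from 5 lists, and none of their members passed the adjusted threshold in either tissue. In hypothalamus, at an unadjusted p under 0.05, 4 of 21 AMPA and kainate auxiliary genes were higher and 1 lower, with Cacng7 (fold 1.10, adjusted p = 0.374) and Cacng8 (1.17, 0.378), both AMPA auxiliary subunits, having the smallest p. Of 23 excitatory scaffold genes 8 were higher, led by Shank3 (1.23, 0.326) and Camk2b (1.09, 0.410). Of 17 inhibitory partners 4 were higher, led by Nlgn2 (1.14, 0.316), an adhesion protein of inhibitory synapses, and Iqsec3 (1.15, 0.341). Of 10 GABA-B auxiliary and effector genes 4 were higher, led by Kcnj9 (1.13, 0.371), a potassium channel, and Kctd12 (1.09, 0.410). Of 18 supply and uptake genes 6 were higher, led by Slc6a11 (1.15, 0.309), the GABA transporter GAT3, and Slc17a7 (2.28, 0.316), a vesicular glutamate transporter. Slc17a7 is also in the list of 9 cortex and hippocampus markers. Of the 8 tested in hypothalamus, 3 were below 0 (median 0.10), beside 49.7% of all genes. At that unadjusted p 2 were higher and 1 lower. The part of tissue content in the fold of Slc17a7 was not tested. All adjusted values here are from limma, and the background remains 5.85% higher and 4.08% lower.

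In choroid plexus, at the same unadjusted p, where the background was 2.54% higher and 3.67% lower, none of 12 tested auxiliary and none of 19 scaffold genes were found, and 1 of 16 inhibitory partners and 1 of 3 GABA-B genes, both lower. Of the 14 supply and uptake genes tested, 10 were below 0 (median log2 fold change -0.22, beside 51.6% of all genes below 0), and the count at an unadjusted p is not reported here for that list. The inhibitory partner was Lhfpl4 (fold 0.508, limma's adjusted p = 0.718), at 40.5 ± 18.4 scaled reads in controls and 19.6 ± 6.74 in Ins2 libraries, highest in control 2. The GABA-B gene was App (fold 0.904, adjusted p = 0.793), whose secreted product binds GABBR1. The smallest p of the first 2 lists were those of Olfm2 (adjusted p = 0.901), Shisa8 (0.903), Dlg3 and Lrrtm2 (both 0.844), and next in the other 2 lists were Trak2 (0.816) and Kctd12 (0.833). Slc1a1, a glutamate transporter of the supply and uptake list, had an adjusted p of 0.813 by limma.

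Whether a subunit responded differently in the 2 tissues was tested as the difference of its log2 fold changes over 19 members and 13997 genes tested in both. No member passed, where 0.107% of all genes did, and 2 had an unadjusted p under 0.05 (10.5%, beside 10.6% of all genes). These were Gabrb1 and Gabra4. By this test of the difference, Gabrb1 was at -0.25 in choroid plexus and -0.01 in hypothalamus (difference -0.24, unadjusted p = 0.00865, adjusted p = 0.296). Gabra4 was at -0.16 and 0.05 (difference -0.21, unadjusted p = 0.0149, adjusted p = 0.352). The choroid plexus estimates are those by which both genes were named above, so this is not separate evidence. The test takes the libraries of the tissues as independent, which need not hold if they came from the same mice.

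Across the 11 choroid plexus libraries, the 5 genes most like each of the 3 highest members were listed by Pearson's r of log2(value + 1) over 12168 genes, as a description. For Grik5 they were Col13a1, Fes, Bgn, Tie1 and Mmrn2 (r = 0.91 to 0.94). For Gabbr1 they were Serpinh1, Sema7a, Bcam, Slc35a1 and Fcgrt (r = 0.93 to 0.96), and for Gabra4 Oser1, Fbxo32, Map1a, Otud7b and Zfp462 (r = 0.86 to 0.89). Without the 2 libraries farthest from the median of the member, r was 0.87 to 0.91, 0.90 to 0.94 and 0.72 to 0.92. Between members, r was 0.72 for Gabra4 and Gabrb1, 0.69 for Grik5 and Gabbr1, and -0.50 for Grik5 and Gabra4. The listed genes were picked as the highest of 12168 values over 11 libraries. Such a choice gives high r by itself, also after 2 libraries are left out, and no baseline for it was computed. The libraries share depth, dissection and 2 treatment groups, so these values are not independent of them.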

How the data were processed

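Per the submitters' processing notes, reads were aligned with HISAT2 to GRCm38 (mm10), counted with featureCounts and scaled with DESeq2. Tool versions and the strand setting are not given in the sources used. Each deposited signal value is a gene's count over the authors' DESeq2 size factor, in 1 table per tissue scaled on its own. Libraries were poly(A)-selected and strand-marked, per the labels' protocols. Whole reads were recovered by dividing by the smallest step, and 100% of values came out whole within 0.02. Reads per M reads and per kilobase used the GENCODE vM21 exon union; levels were not tested across tables.

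Limma 3.58.1 (R 4.3.3; lmFit, eBayes with trend) was run within each tissue on log2(value + 1), genes with a mean of at least 10, no covariate, Benjamini-Hochberg threshold 0.05. Fold changes on this scale understate those of low genes. EdgeR 4.0.16, DESeq2 1.42.0, other pseudocounts, filters, scalings, array weights, a replicate block and leaving out each library were alternatives. On simulated counts with a log2 change of 1, limma recovered 96.0% of 99 changed genes in choroid plexus and 94.9% of 98 in hypothalamus. There were 5 and 11 false calls in all, and smaller changes were not simulated. The spread between simulated libraries was set by a formula and not estimated from these data. The recovery therefore does not carry over to the members, whose median standard error in choroid plexus was 0.31. Within each tissue and group, no libraries were alike enough to be 1 library deposited 2 times (lowest chi-square per gene 5.55). Pairs across groups were not compared. The members, lists and naming rule were chosen with earlier results of these data known. Named were the 5 smallest p in each direction and tissue, the 8 highest and the highest of each class in choroid plexus, and the 2 smallest p of each further list; some members and list genes are counted but not reported here by name.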

Additional observations from a re-analysis of the deposited data

Results flagged for a closer look

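Of 56 groups of 5 or 6 libraries examined for members named in the report, 11 had 1 library far from the others. Chance gives about 1 in 20 for normally spread values, which counts of a few reads are not. Values are size-factor-scaled reads. In choroid plexus, control 2 was the high library for Grm3 (86.9, others 0 to 3.09), Gria1 (207, others 6.48 to 55.6) and Gabbr2 (28.4, others 4.12 to 6.48). Control 2 also held the high oligodendrocyte and astrocyte transcripts, and their part in these values was not tested. Ins2 replicate 6 was the high Ins2 library for Grm3 (12.6, others 0 to 2.83) and Gria1 (43.1, others 15.4 to 22.3). Ins2 replicate 2 was low for Gabbr2 (4.13, others 11.1 to 14.3) and high for Grin3b (236, others 125 to 150.3). Gabrr2 was high in control 1 (7.21, others 4.30 to 4.95) and in Ins2 replicate 5 (12.2, others 0 to 2.74), and Grid1 was high in Ins2 replicate 1 (20.1, others 0 to 5.65). These flags rest on few reads, 0 to 13 per library for Gabrr2 and 0 to 22 for Grid1. In hypothalamus, Gria3 was low in Ins2 replicate 2 (3083, others 3178 to 3189), a gap that is small against the level.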

How the results depend on the processing

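In choroid plexus no member was called under any of 21 alternatives, and in hypothalamus 18 of 20 called none. Over all choroid plexus genes these alternatives called from 1 to 25, the most with DESeq2. DESeq2 called 1 hypothalamus member, Grin2b (log2 fold change 0.21, adjusted p = 0.0342). The replicate block called 1, Grin2d (log2 fold change 0.38, adjusted p = 0.0241), with 54 genes called over the whole table. Same-numbered libraries did not deviate together (correlations of -0.148 to 0.140 over 5 choroid plexus pairs and -0.0699 to 0.00886 over 4 hypothalamus pairs), so the numbers were not taken as a pairing. The cause of either call was not tested. Leaving out 1 library at a time gave 0 called members in both tissues; without hypothalamus control 6 the smallest adjusted p was 0.0716, and 18 genes of the whole table were called. The count of genes present in choroid plexus was 17 with at least 3 reads, 7 with at least 50, and 11 to 12 without 1 library at a time; these alternatives were chosen after seeing the data. In choroid plexus 4 named fold changes changed sign in some settings, 3 near 0 and that of Gria3 (log2 fold change 0.29). Gabbr1 became 0.0087 with the replicate block. Without 1 library at a time the log2 fold change ran from -0.069 to 0.012 for Gabbr1, -0.046 to 0.49 for Gria3, -0.0019 to 0.048 for Grik5 and -0.17 to 0.065 for Grin3b. The median of the members ran from -0.16 to 0.02 in choroid plexus and from -0.03 to 0.02 in hypothalamus over the same omissions. Depth limits the low genes of choroid plexus most, where 25 of 47 members had 0 reads in at least 1 library.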
